A study of Mus musculus with 6 samples.

Results

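The genes described here were 9 transcription factor genes that are core targets of Mll fusion proteins: 7 genes of the Hoxa cluster (Hoxa3, Hoxa5, Hoxa6, Hoxa7, Hoxa9, Hoxa10 and Hoxa11) and the cofactor genes Meis1 and Pbx3. They were chosen by name, with no threshold on a measured value but with earlier results of these data known. They stand among 29374 genes with at least 1 estimated read, of which 16656 had enough reads to be tested. The RNA came from spleen cells of mice that carry the Mll-AF9 fusion knocked in at the endogenous Mll locus, sorted as CD11b+Gr1+ cells from tumor-bearing animals. The mice were either Rpl22+/+ or Rpl22-/-, the latter lacking a functional germline copy of the gene for ribosomal protein Rpl22, so both groups carried the fusion and only the Rpl22 genotype differed by label. There were 3 libraries of each genotype, with poly(A) RNA read by RNA-seq. The labels give neither the age of the mice nor the mouse behind each library, and the study's description of the leukemias names 1 animal of each genotype. The p-values below therefore measure the spread between these libraries, which may be technical, and a difference between the genotypes cannot be told apart from a difference between 2 leukemias.

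Hox proteins are homeodomain transcription factors whose genes lie in clusters, and in blood formation the Hoxa genes are high in stem and progenitor cells and fall as granulocytes mature. Meis and Pbx proteins, homeodomain proteins of the TALE class, bind DNA together with Hox proteins. Mll fusions such as Mll-AF9 hold Hoxa9 and Meis1 active, and these genes are long known as drivers of this form of leukemia.

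The libraries held between 35828500 estimated reads (Rpl22-/- replicate 1) and 102866127 (Rpl22-/- replicate 3). Rpl22 itself was 2.41-fold lower in the Rpl22-/- libraries (58.3 to 89.9 against 148 to 235 CPM, that is, reads of a gene relative to its library's size with TMM factors; adjusted p = 0.0106), so the transcript was reduced and not absent. Itgam, which encodes CD11b, was at 245 to 328 TPM, a level scaled for transcript length and library size, in Rpl22-/- and 492 to 562 in Rpl22+/+, and Ly6g, which encodes part of the Gr1 epitope, was at 18.8 to 27.8 against 236 to 259. The summed TPM of 8 mature neutrophil markers was 15830 to 22624 in Rpl22-/- against 53713 to 56394, with all 8 lower. The summed TPM of 7 progenitor markers was 26167 to 31247 against 2772 to 3633, with 6 higher and Flt3 lower. That sum was carried by granule protein genes such as Elane (1006 TPM on average in Rpl22+/+ and 12180 in Rpl22-/-) and Mpo (740 and 6430), while the surface protein genes Cd34 (14.6 and 39.4 TPM, 2.48-fold higher), Kit (5.85 and 15.1, 2.55-fold higher) and Flt3 (4.63 and 2.39, 2.09-fold lower) were low and differed less. The sums of the other lists were 171 to 366 against 501 to 595 (6 monocyte markers, 3 called lower), 284 to 388 against 395 to 502 (5 B cell markers, 1 lower), 8.4 to 10.1 against 25.3 to 31.7 (5 T cell markers, 5 lower), 914 to 1678 against 147 to 172 (5 erythroid markers, 4 higher), 5.6 to 6.0 against 3.8 to 5.2 (5 megakaryocyte markers, 0 called of 3 tested, with Pf4 and Ppbp under 1 TPM in every library), 33.4 to 39.1 against 23.6 to 26.4 (6 stromal and endothelial markers, 1 lower of 4 tested and 4 under 1 TPM in every library) and 3012 to 3637 against 2517 to 2924 (4 sort antigens, 2 lower). The sums of the last 2 lists were thus higher in Rpl22-/- although their calls were all lower. These marker sums moved with genotype beside every result below, and their part in those results was not tested. In such bulk samples, fewer cells of a type and less RNA per cell cannot be told apart. Rpl22+/+ replicate 2 stood apart from its group, with a correlation across genes of 0.926 and 0.934 with the other Rpl22+/+ libraries against 0.992 between those 2.

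In the GRCm39 positions of the authors' table, the Hoxa members lay on the minus strand of chromosome 6 within 76.7 kb, with Hoxa3 at the 3′ end of the series (chr6:52146042-52190316) and Hoxa11 at its 5′ end (chr6:52219086-52222790). Between them followed Hoxa5 (chr6:52178734-52181567), Hoxa6 (chr6:52183268-52185702), Hoxa7 (chr6:52191471-52198834), Hoxa9 (chr6:52200080-52208069) and Hoxa10 (chr6:52208177-52217834). The annotated span of Hoxa3 covers Hoxa5 and Hoxa6, but no exon base of 1 member was shared with another member in the annotation used. Hoxa3 shared 482 of its 6014 exon bases with a predicted gene on the same strand, and on the other strand it overlaps the antisense RNA genes Hoxaas2 by 503 and Hoxaas3 by 297 exon bases and the RNA gene 5730596B20Rik by 292. Hoxa7 overlaps Hoxaas3 by 586 exon bases and Hoxa11 overlaps Hoxa11os by 800. The kit was stranded, but the strand setting of the read assignment is not given in the sources used here. Meis1 lay on chromosome 11 (chr11:18829817-18968985) and Pbx3 on chromosome 2 (chr2:34061469-34263154), both on the minus strand.

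The sequence before the start site was compared first, since Hoxa5 and Hoxa6 moved together and Hoxa9, the gene with the highest level, differed less, as the values further on show. RefSeq promoters of 300 bases (GRCm38.p6, 250 before and 50 after the start) were found for 8 of the 9 members, with 2 for Hoxa10. The 250 bases before the start of Hoxa5 (chr6:52204588-52204837), Hoxa6 (chr6:52208673-52208922) and Hoxa9 (chr6:52227371-52227620), minus strand in each case, are shown 5′ to 3′ with every CG dinucleotide in capitals.
Hoxa5: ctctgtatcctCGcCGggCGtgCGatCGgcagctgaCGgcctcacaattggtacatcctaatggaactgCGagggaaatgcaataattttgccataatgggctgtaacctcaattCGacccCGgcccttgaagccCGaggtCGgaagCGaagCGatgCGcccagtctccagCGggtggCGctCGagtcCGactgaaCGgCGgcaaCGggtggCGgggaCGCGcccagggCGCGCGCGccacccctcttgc
Hoxa6: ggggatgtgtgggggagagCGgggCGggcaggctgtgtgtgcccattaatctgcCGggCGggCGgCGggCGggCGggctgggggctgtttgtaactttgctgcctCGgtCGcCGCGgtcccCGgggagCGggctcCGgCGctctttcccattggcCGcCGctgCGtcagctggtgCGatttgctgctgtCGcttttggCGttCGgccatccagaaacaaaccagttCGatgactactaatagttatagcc
Hoxa9: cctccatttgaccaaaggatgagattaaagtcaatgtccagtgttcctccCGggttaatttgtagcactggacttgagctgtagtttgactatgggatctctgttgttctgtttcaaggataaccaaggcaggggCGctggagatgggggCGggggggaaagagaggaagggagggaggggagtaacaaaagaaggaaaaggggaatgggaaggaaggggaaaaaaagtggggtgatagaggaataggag
The Hoxa5 stretch held 28 CG dinucleotides, the Hoxa6 stretch 24 and the Hoxa9 stretch 3. Over the whole 300 bases, Hoxa5 had 29, Hoxa6 26, Hoxa10 21 and 12 at its 2 starts, Hoxa3 20, Hoxa11 and Meis1 15 each, Hoxa7 9 and Hoxa9 4, against a median of 7 over 32851 promoters. TGATNNAT, a form of the composite Hox-Pbx motif, was searched on both strands and matched 0 of the 9 member promoters, while 8.85% of all promoters hold it. TGACAG, the core of the Meis motif, matched 1 of them, that of Hoxa3, against 19.2% of all promoters; the letters of these motifs do not contain one another. These counts describe the letters in the windows, and neither binding nor methylation was measured.

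The cluster also encodes a microRNA, miR-196b, whose hairpin lies within annotated exon sequence of Hoxa9, on the same strand. Its mature sequence (RefSeq, GRCm38.p6, chr6:52230129-52230150) is printed with the seed, bases 2 to 8, in capitals.
mmu-miR-196b-5p: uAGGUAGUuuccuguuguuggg
Matches to this seed in the 3′ UTR of the coding transcript with the most reads, from GENCODE transcript sequences, were found in 4 members, and 5.49% of 20500 genes have at least 1. Hoxa7 held 4 matches, in 1219 bases of 3′ UTR, and Hoxa5, Hoxa9 and Pbx3 held 1 each. The sites are shown with the 7 matching bases in capitals, 1 of the 4 for Hoxa7.
Hoxa7: aggcacagccaaaatACTACCTa
Hoxa5: gatatttttattcaaACTACCTa
Hoxa9: gcaaaaggaaagaaaACTACCTt
Pbx3: ttagagcgctcacttACTACCTc
The genes with a match included members that were higher, lower and not past the test between genotypes. A match to the seed of let-7, another microRNA, was found in Pbx3 and in Hoxa11, 1 each, and 8.21% of genes have at least 1. The match in Pbx3 overlaps the miR-196b site shown. Neither microRNA is measured in these poly(A) libraries.

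The order of the members by level, which needs a scale per length, was first read in TPM. In Rpl22+/+ cells Hoxa9 was highest at 60.5 ± 6.37 TPM (mean ± SD, n = 3, as for the values that follow), then Meis1 at 29.97 ± 4.33, Hoxa7 at 22.4 ± 0.415, Hoxa10 at 14.4 ± 1.48, Hoxa5 at 8.25 ± 2.03, Hoxa6 at 4.73 ± 1.42, Hoxa3 at 3.51 ± 1.01 and Pbx3 at 3.20 ± 0.553. The ranges of Hoxa5 and Hoxa6 overlapped, as did those of Hoxa6, Hoxa3 and Pbx3, while each step from Hoxa9 down to Hoxa5 was free of overlap. In Rpl22-/- cells Hoxa9 was again highest, at 79.7 ± 4.97 TPM, but Hoxa5 followed at 35.0 ± 3.32, with Hoxa7 at 32.8 ± 1.35 and Meis1 at 31.5 ± 3.73. These 3 overlapped. Hoxa6 at 18.6 ± 3.66 and Hoxa10 at 17.5 ± 0.946 overlapped too, and Hoxa3 at 8.30 ± 2.35 and Pbx3 at 2.00 ± 0.321 closed the order. Hoxa11 was nearly silent in both genotypes.

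Across genotypes, 3 members were higher in Rpl22-/- (Hoxa3, Hoxa5 and Hoxa6), 1 was lower (Pbx3), 4 did not pass the test (Hoxa7, Hoxa9, Hoxa10 and Meis1), and Hoxa11 had too few reads to be tested. The test was edgeR's quasi-likelihood test with Benjamini-Hochberg adjustment over all genes tested, and a gene was called at an adjusted p under 0.05. Of all genes tested, 13.7% were called higher and 13.8% lower, and the groups of 3 libraries did not overlap for 46.1% of genes and for 6 of the 8 members tested. The median log2 fold change was 0.43 over the 8 members and 0.07 over all genes tested.

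**Figure D1:**
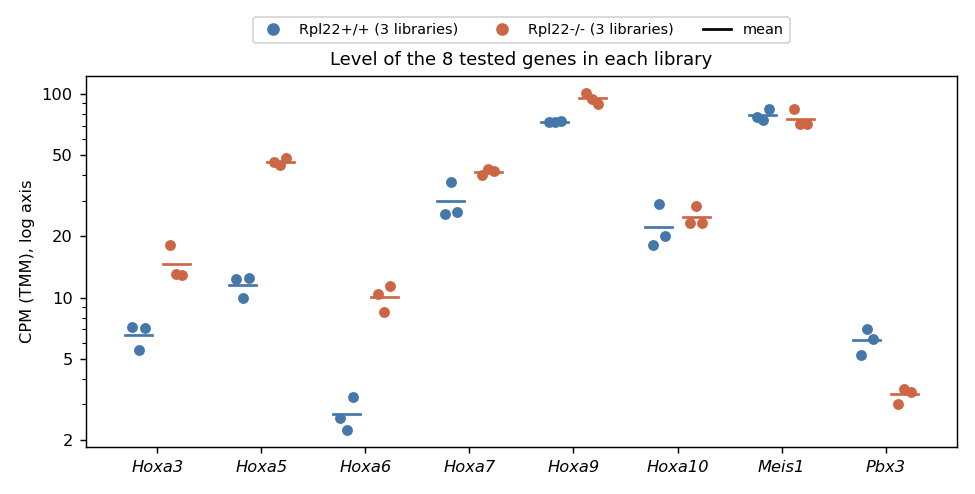
CPM values of the 8 tested genes (log axis) in each Rpl22+/+ library (blue points) and each Rpl22-/- library (orange points), with bars at the mean of 3 libraries. The Hoxa5 points sit between 9.97 and 12.5 in Rpl22+/+ and between 44.7 and 48.8 in Rpl22-/-, while those of Hoxa10 and Meis1 overlap.

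The widest difference among the 8 tested members was in Hoxa5, which is also a regulator of lung development. Its CPM values were 12.3, 9.97 and 12.5 in the Rpl22+/+ libraries and 46.1, 44.7 and 48.8 in the Rpl22-/- libraries. Every Rpl22-/- library was far above every Rpl22+/+ library, and the values within a genotype lay close together. The fold was 4.02 (log2 fold change 2.01 ± 0.15 SE, adjusted p = 0.00025). Hoxa6, the neighbour of Hoxa5 on its 5′ side, was at 2.58, 2.24 and 3.27 CPM in Rpl22+/+ and at 10.5, 8.49 and 11.5 in Rpl22-/-. Its groups were likewise far apart, at a fold of 3.75 (log2 fold change 1.91 ± 0.22, adjusted p = 0.00139). Hoxa3, a gene of the 3′ part of the cluster that patterns pharyngeal organs in the embryo, was at 7.15, 5.54 and 7.08 in Rpl22+/+ and at 18.1, 13.01 and 12.95 in Rpl22-/-. The highest Hoxa3 value came from Rpl22-/- replicate 1, the shallowest library, and the groups did not overlap. The Hoxa3 fold was 2.23 (log2 fold change 1.15 ± 0.20, adjusted p = 0.00716). Each of these 3 genes stayed past the threshold, in the same direction, under all 19 other settings tried.

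Hoxa7 and Hoxa9 had smaller differences that the test did not call, although their groups did not overlap. Hoxa9, the best studied leukemogenic Hox gene, was at 73.0, 73.0 and 73.9 CPM in Rpl22+/+ and at 101, 94.7 and 89.9 in Rpl22-/-. All 3 Rpl22-/- libraries were higher, by a fold of 1.30, with a 95% interval of the log2 fold change from 0.10 to 0.66 (adjusted p = 0.0516). Hoxa7 was at 25.8, 36.9 and 26.5 in Rpl22+/+ and at 39.9, 42.6 and 41.9 in Rpl22-/-, with Rpl22+/+ replicate 2 closest to the other genotype. Its fold was 1.40 (log2 fold change 0.48 ± 0.17, adjusted p = 0.0832). Both calls depended on the setting. Without Rpl22+/+ replicate 2, the adjusted p was 0.0388 for Hoxa9 and 0.00417 for Hoxa7. With the replicate number as a block, it was 0.0459 for Hoxa7. Hoxa9 passed under 8 of the 19 other settings and Hoxa7 under 9, always higher in Rpl22-/-.

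Hoxa10, a neighbour of Hoxa9 that also acts in progenitors, was at 18.1, 28.8 and 20.03 CPM in Rpl22+/+ and at 23.2, 28.2 and 23.2 in Rpl22-/-. The groups overlapped, since replicate 2 was the highest library of each genotype. The log2 fold change was 0.16, with a 95% interval from -0.34 to 0.65 (adjusted p = 0.642). Hoxa11, which acts in limb, kidney and uterus, had 0, 3 and 1 reads in the Rpl22+/+ libraries against 3, 5 and 24 in the Rpl22-/- libraries. Of the 32 reads in Rpl22-/-, 24 came from replicate 3, and no difference could be detected with so few reads (adjusted p = 0.128 when the filter on low counts was left out).

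Along the cluster, the called members were thus the 3 nearest its 3′ end, and the log2 fold changes from Hoxa5 to Hoxa10 lay in the order of the genes, at 2.01, 1.91, 0.48, 0.38 and 0.16. That order was not kept in full with 1 library left out, since Hoxa10 (0.34) was above Hoxa9 (0.33) without Rpl22+/+ replicate 2 and Hoxa6 (2.07) above Hoxa5 (2.06) without Rpl22+/+ replicate 3. The 95% intervals of Hoxa5 (1.66 to 2.35) and Hoxa6 (1.39 to 2.43) lay above those of Hoxa7 (0.07 to 0.89) and Hoxa9 (0.10 to 0.66). Hoxa7, Hoxa9 and Hoxa10 overlapped in their intervals. Hoxa3 lay below Hoxa5, so the order by position did not extend to the 3′ end.

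**Figure D2:**
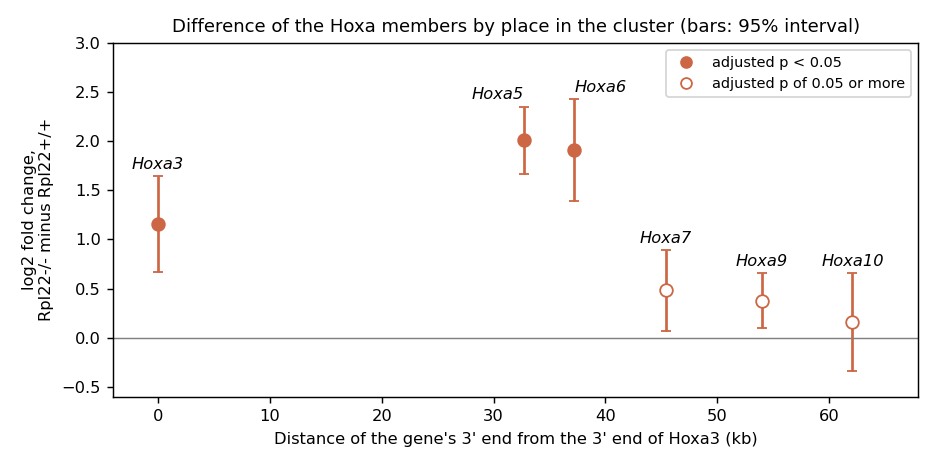
The log2 fold change (Rpl22-/- minus Rpl22+/+) of 6 Hoxa members against the distance of each gene's 3′ end from that of Hoxa3 in kb, with 95% intervals as bars and filled points where the adjusted p was under 0.05. Hoxa3, Hoxa5 and Hoxa6 lie at 1.15, 2.01 and 1.91, and Hoxa7, Hoxa9 and Hoxa10 at 0.48 or lower.

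The make-up of the Hoxa message differed accordingly. The summed TPM of the 7 Hoxa members was 118.2, 103.4 and 119.5 in Rpl22+/+ and 203.2, 176.3 and 196.4 in Rpl22-/-. Hoxa9 made up 54.6%, 51.4% and 53.3% of the sum in Rpl22+/+ and 41.0%, 42.0% and 41.6% in Rpl22-/-. Hoxa5 held 7.19% ± 1.28 of the sum in Rpl22+/+ and 18.2% ± 0.555 in Rpl22-/- (SD, n = 3), and Hoxa6 4.11% ± 0.968 and 9.64% ± 1.33. Hoxa7 held 19.8% ± 2.01 and 17.1% ± 0.700, and Hoxa10 12.7% ± 2.31 and 9.17% ± 1.15. These shares restate the levels and were not tested. The log2 ratio of Hoxa5 to Hoxa9 in TPM, chosen after the values were seen and not tested either, was -2.90 ± 0.232 in Rpl22+/+ and -1.19 ± 0.053 in Rpl22-/-.

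**Figure D3:**
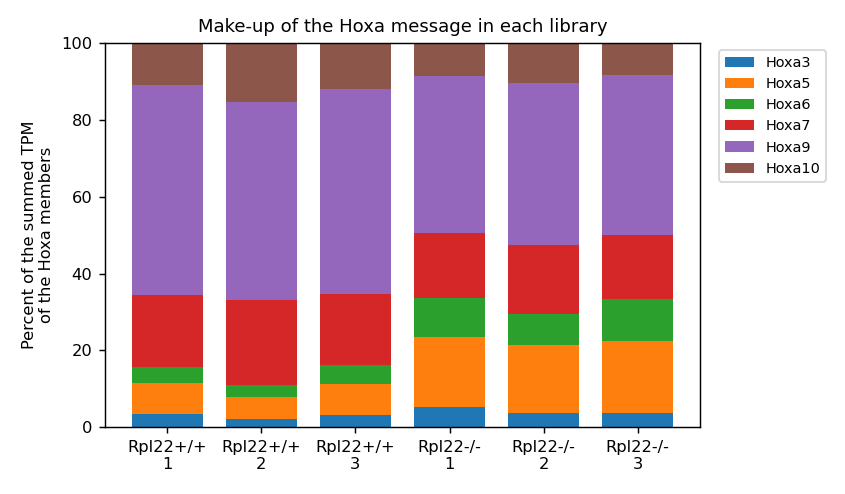
Stacked bars of the percent of the summed TPM of the Hoxa members held by each gene in each of the 6 libraries (Hoxa11, at under 0.1%, is not drawn). Hoxa9 holds 51.4% to 54.6% in the Rpl22+/+ bars and 41.0% to 42.0% in the Rpl22-/- bars, and Hoxa5 5.72% to 8.03% against 17.7% to 18.8%.

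The cofactors behaved differently from one another. Meis1, the partner that speeds leukemia driven by Hoxa9, was at 77.5, 74.96 and 84.9 CPM in Rpl22+/+ and at 84.6, 71.5 and 71.2 in Rpl22-/-. The groups overlapped, with replicate 1 the highest Rpl22-/- library. The log2 fold change was -0.06, with a 95% interval from -0.38 to 0.25 (adjusted p = 0.778), and its sign turned with the scaling. Pbx3, a Pbx protein that binds with Hoxa9 and Meis1, was at 5.21, 7.05 and 6.25 in Rpl22+/+ and at 3.02, 3.57 and 3.46 in Rpl22-/-. All 3 Rpl22-/- libraries were lower, by a fold of 1.84 (log2 fold change -0.88 ± 0.19, adjusted p = 0.0163). The Pbx3 call was lost without Rpl22+/+ replicate 3 (adjusted p = 0.0661), Rpl22-/- replicate 1 (0.0594) or Rpl22-/- replicate 3 (0.0621), and on the log2(TPM + 1) scale (0.0629), with the direction kept under all 19 settings.

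**Figure D4:**
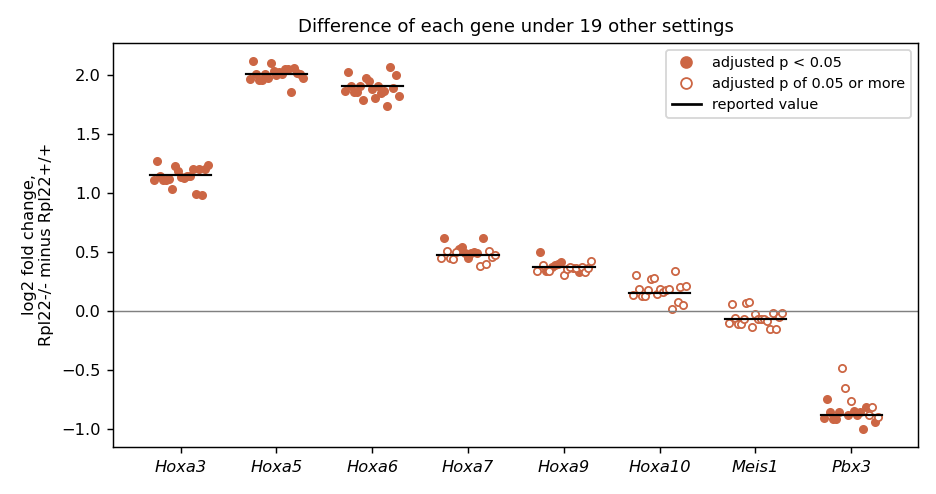
The log2 fold change (Rpl22-/- minus Rpl22+/+) of each tested gene under the 19 other settings (points, filled where the adjusted p was under 0.05) beside the reported value (black bar). The points of Hoxa3, Hoxa5 and Hoxa6 are all filled and stay above 0.98, those of Hoxa7, Hoxa9 and Pbx3 are mixed, and those of Hoxa10 and Meis1 are all open.

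Ratios between members within a library do not depend on how libraries are scaled. The log2 ratio of Meis1 to Hoxa9 in TPM was -1.06, -1.08 and -0.92 in Rpl22+/+ and -1.23, -1.40 and -1.40 in Rpl22-/-. All Rpl22-/- libraries lay lower, by 0.33 on average (exact two-sided permutation test, p = 0.1, the smallest that 3 against 3 libraries allow, and 0.15 after adjustment over 3 ratios). The log2 ratio of Pbx3 to Meis1 was -3.23 ± 0.232 (SD, n = 3) in Rpl22+/+ and -3.98 ± 0.378 in Rpl22-/-, also without overlap (exact p = 0.1, adjusted 0.15). The log2 ratio of Hoxa10 to Hoxa9 was -2.07 ± 0.298 and -2.19 ± 0.163, with overlap (exact p = 0.7). The design cannot reach 0.05 in these tests.

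Isoform use was compared for Hoxa9 and Meis1, transcript by transcript, in both level and share of the gene. Only transcripts matched to GENCODE M21 (136036 of 276623 listed) were counted, so any unmatched transcript of a gene is left out of its shares. Over all transcripts tested, 5.81% were called by level (3053 transcripts, but 747 to 4379 with 1 library left out) and 0.65% by share (301, and 330 to 515 with 1 library left out), and of the 12 transcripts of these 2 genes tested, 0 were called by either edgeR test, and 0 by level with limma on log2(TPM + 0.1). With 3 libraries a genotype the share test can miss all but large shifts, so the absence of calls does not show that isoform use was the same. At an unadjusted p under 0.05 there were 0 by level and 1 by share. Among the other members, Hoxa5-201, Hoxa6-201 and Hoxa3-201, the main transcripts of the called genes, were called higher by level (adjusted p = 0.00303, 0.0111 and 0.0285).

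Hoxa9 had 4 transcripts with at least 5% of its reads. Hoxa9-201, of 3226 bases in 2 exons with 271 codons, encodes the full homeodomain protein and held 68.5% ± 0.487 of the gene's reads in Rpl22+/+ and 69.7% ± 3.30 in Rpl22-/- (SD, n = 3). Hoxa9-202, of 851 bases with 105 codons, held 17.0% ± 1.83 and 15.5% ± 3.47, the processed transcript Hoxa9-203 held 9.23% ± 0.818 and 8.45% ± 0.849, and the retained intron transcript Hoxa9-205 held 5.17% ± 2.40 and 6.34% ± 1.62. Per length, the shares were nearly even between the 2 coding forms, with Hoxa9-201 at 32.5% ± 1.27 and 35.0% ± 4.39 of the gene's TPM and Hoxa9-202 at 36.7% ± 2.57 and 34.7% ± 5.57. Every one of the 4 transcripts had overlapping groups in its share of TPM. The Hoxa9-205 reads were fewest in Rpl22+/+ replicate 2, at 133 against 360 and 334 in the other Rpl22+/+ libraries.

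Meis1 was spread over 5 such transcripts. Meis1-201 (390 codons) held 57.7%, 74.9% and 63.1% of the gene's TPM in Rpl22+/+ and 41.9%, 58.3% and 61.0% in Rpl22-/-. The groups overlapped, and the share differed more between libraries of 1 genotype than between the means. Between libraries of the same number, the Rpl22-/- share was the lower each time. With the replicate number as a block, 0 Hoxa9 and Meis1 transcripts were called by share. Meis1-209 (465 codons, the longest protein form listed) held 15.9% ± 1.85 in Rpl22+/+ and 12.7% ± 1.26 in Rpl22-/-, without overlap, and its share was not called (adjusted p = 1). Meis1-208 (385 codons) held 5.60% ± 4.37 and 9.64% ± 5.57 and Meis1-206 (370 codons) 3.26% ± 1.71 and 2.46% ± 1.40, both lowest among the Rpl22+/+ libraries in replicate 2. Meis1-203, a processed transcript of 2008 bases with no coding region, was given 181, 0 and 0 reads in the Rpl22+/+ libraries against 315, 485 and 532 in the Rpl22-/- libraries. This was the transcript whose share had an unadjusted p under 0.05, and its adjusted p was 0.578 (edgeR). Without Rpl22+/+ replicate 1, the only Rpl22+/+ library with its reads, 1 of the Hoxa9 and Meis1 transcripts was called by level and 1 by share.

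**Figure D5:**
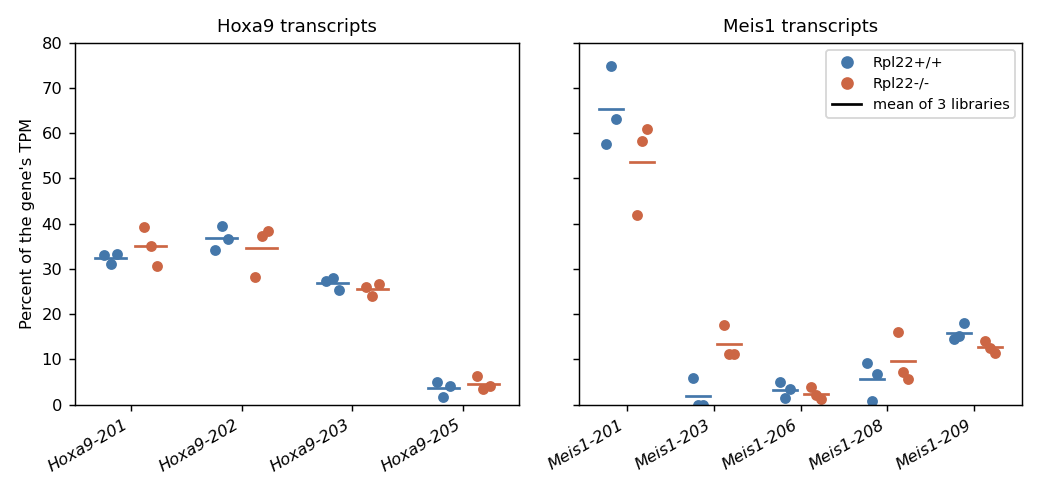
The share of the gene's TPM, in percent, held by each transcript of Hoxa9 (left) and Meis1 (right) with at least 5% of the reads in either genotype, for 3 Rpl22+/+ libraries (blue) and 3 Rpl22-/- libraries (orange), with bars at the mean. The Hoxa9 groups overlap throughout, and Meis1-203 sits at 0% in 2 Rpl22+/+ libraries and between 11.2% and 17.6% in Rpl22-/-.

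Pbx3 had 2 main coding transcripts, Pbx3-201 with 434 codons and Pbx3-202 with 351. Pbx3-201 was given 188, 249 and 128 reads in the Rpl22+/+ libraries against 46, 78 and 68 in the Rpl22-/- libraries, and Pbx3-202 had 170, 257 and 286 against 67, 239 and 246. The longer form was lower in all Rpl22-/- libraries, with a log2 fold change of -1.65 ± 0.44 that did not pass the test by level (adjusted p = 0.0898). Its share of the gene's reads was 51.3%, 47.8% and 27.4% against 40.3%, 21.7% and 18.6%, with overlap, though lower in Rpl22-/- for each replicate number.

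Around these members, other genes of the same families gave a mixed picture. Of 32 further Hox genes, 19 had any read and 8 could be tested, with 1 higher, 4 lower and a median log2 fold change of -0.90. That is, 12.5% were higher and 50% lower, against 13.7% and 13.8% of all genes tested, whose median was 0.07. Among those lower, Hoxb13 had 110, 193 and 139 reads in the Rpl22+/+ libraries but 0, 3 and 1 in the Rpl22-/- libraries (adjusted p = 0.000547). Hoxb6 was 2.74-fold lower at under 0.3 TPM (adjusted p = 0.0357). These sparse calls were unsteady: without Rpl22+/+ replicate 1 or 3, or without any 1 Rpl22-/- library, 0 of the further Hox genes were called higher and 2 lower.

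Of 13 other TALE class genes and partners, 9 were tested, with 1 higher, 3 lower and a median log2 fold change of -0.49. The shares called were 11.1% higher and 33.3% lower, against 13.7% and 13.8% of all genes tested. Pbxip1, which encodes a protein that binds Pbx proteins and keeps them from DNA, was at 254, 323 and 263 CPM in Rpl22+/+ and at 128, 120 and 105 in Rpl22-/-. All 3 Rpl22-/- libraries were lower, by a fold of 2.38 (adjusted p = 0.00194). Pknox1, also called Prep1, a TALE protein that pairs with Pbx, was 1.43-fold lower (adjusted p = 0.0458), and its relative Pknox2 was lower at under 0.2 TPM in every library (adjusted p = 0.0422). Without Rpl22+/+ replicate 3, or without any 1 of the Rpl22-/- libraries, 1 of these genes was called lower rather than 3.

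Among 9 neighbouring genes and noncoding RNAs of the cluster, 4 were tested. Hoxaas3, an antisense RNA gene that runs from Hoxa3 to Hoxa7 on the plus strand (chr6:52152197-52192056), had 6, 20 and 6 reads in the Rpl22+/+ libraries against 16, 56 and 77 in the Rpl22-/- libraries. It was called higher, at a fold of 3.93 (adjusted p = 0.0405) and under 1.4 TPM in every library, but the call was lost without Rpl22+/+ replicate 1 or 3, without any 1 of the Rpl22-/- libraries and with the GC offset. Under the filter of a mean of 50 counts and with protein-coding transcripts only, it was not among the genes tested. Its exons overlap those of Hoxa3 and Hoxa7 on the other strand, so its reads and theirs are uncertain where strand was not used. Snx10, a sorting nexin gene beside the cluster, was 1.91-fold lower (adjusted p = 0.00454).

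Of 26 genes for regulators of the cluster, such as members of the Mll and Polycomb complexes, 23 were tested and 21 did not pass. With 1 higher and 1 lower, 4.35% were called in each direction, fewer than the 13.7% and 13.8% of all genes tested. Ash2l, a subunit of Mll methyltransferase complexes, was 2.32-fold higher, at 115, 112 and 104 CPM against 44.6, 53.9 and 44.1 (adjusted p = 0.00127). Kdm6b, a demethylase of the Polycomb mark, was 1.66-fold lower (adjusted p = 0.0452), a call that was lost without Rpl22+/+ replicate 1 or 3 or Rpl22-/- replicate 1 or 2. Without Rpl22+/+ replicate 2, the library that stood apart, 2 regulator genes were called higher and 5 lower, and with the replicate number as a block 3 were called higher and 1 lower.

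Of 38 genes known as targets of Hoxa9 and Meis1 or as parts of their program, all tested, 13 were higher (34.2%), 10 lower (26.3%) and 15 not called, against 13.7% and 13.8% of all genes, with a median log2 fold change of 0.24. Lmo2, a stem cell transcription cofactor, was at 245, 271 and 235 CPM in Rpl22+/+ and at 783, 799 and 692 in Rpl22-/-, a fold of 3.03 (adjusted p = 0.000517). Myb, a progenitor transcription factor, was 2.67-fold higher (adjusted p = 0.00621) and Id2, an inhibitor of helix-loop-helix factors, 2.05-fold higher (adjusted p = 0.0014). In the other direction, the kinase gene Syk was 1.57-fold lower (adjusted p = 0.027), the signaling factor gene Stat5b 2.08-fold lower (adjusted p = 0.00594) and the kinase gene Camk2d 1.88-fold lower (adjusted p = 0.0128). Without Rpl22-/- replicate 1, the number called lower was 6. The progenitor marker genes Kit, Cd34 and Flt3 are also in this list. The list was chosen with earlier results of these data known, and its shares were not tested against those of all genes.

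The genes whose pattern was most like that of Hoxa9 over the 6 libraries, among 11714 genes averaging 50 or more counts, were Nradd (Pearson r of log2 CPM 0.998), Wls (0.997) and Mycbp (0.996). As 11.5% of the genes compared had an r over 0.9 with Hoxa9, such likeness was common. For Meis1 they were Ppp1r7 (r = 0.968), Chrnb2 (0.950) and Ager (0.934), and 0.0598% of genes had an r over 0.9. These values describe 6 libraries that fall into the same 2 genotypes for every gene and that differ in depth.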

How the data were processed

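Poly(A) RNA of sorted CD11b+Gr1+ spleen cells was sequenced from 3 Rpl22+/+ and 3 Rpl22-/- libraries. The authors trimmed reads with Trimmomatic and ran Salmon (versions and transcript set release not given in the sources used here). The authors deposited, per transcript and library, estimated counts and TPM values (scaled for transcript length and library size). The authors' comparison table holds fold changes and p-values, which were not used, and GRCm39 positions, which were. Here, transcripts were matched by identifier to GENCODE M21 (136036 of 276623, holding at least 97.96% of reads in every library), their estimated counts were summed to genes and rounded, and genes were tested with edgeR 4.0.16 (R 4.3.3): TMM factors, filterByExpr, the quasi-likelihood F test with genotype as the only term, and Benjamini-Hochberg adjustment over 16656 genes. Transcript levels used the same test and transcript shares diffSpliceDGE, in libraries of 35828500 to 102866127 reads. Scripts were tested on simulated data, in which the changes given to the share test were larger than those given to the gene test. That test run therefore does not show that the share test finds smaller shifts. TPM served for levels between genes and for ratios, which had exact permutation tests. The alternatives were other size factors, filters and tests (DESeq2 1.42.0, limma 3.58.1), TPM scales, offsets for length and GC content, coding transcripts alone, the replicate number as a block and each library left out.

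From each of 5 gene lists, the text names up to 3 called genes of each direction with the largest mean TPM, and for likeness the 3 genes of highest r that are neither members nor predicted genes. The members and lists were chosen with earlier results of these data known. Some genes of the lists are not reported here by name.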

Additional observations from a re-analysis of the deposited data

How the results depend on the processing

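Of 152 member values under 19 other settings, 126 kept their direction and their side of the threshold, 23 changed side and 3 reversed. The reversals were those of Meis1, at a log2 fold change of 0.061 with no composition factor, 0.0734 on the log2(TPM + 1) scale and 0.0757 on the log2(TPM + 0.1) scale. Without a composition factor the log2 fold changes of all genes had a median of 0.19 instead of 0.07, and 61.5% instead of 49.8% of the called genes were higher. The members called higher were 5 and not 3 (Hoxa7 and Hoxa9 added) with no composition factor, on both TPM scales, with protein-coding transcripts only, and with the replicate block and GC offset together, and ranged from 3 to 5 with 1 library left out. The member called lower, Pbx3, was lost (0 members) on both TPM scales and with the length offset, and the count ranged from 0 to 1 with 1 library left out. All genes called numbered 4594, 7569 with the replicate block and GC offset, and 2622 to 6855 with 1 library left out (2622 without Rpl22+/+ replicate 3, 3040 without Rpl22-/- replicate 1 and 2753 without Rpl22-/- replicate 3). Hoxa9 and Meis1 transcripts called ranged from 0 to 1, both by level and by share, with 1 library left out. The cause was not tested. The ratio differences moved by less than the larger of the 2 genotypes' SDs with each library left out, but that of Hoxa10 to Hoxa9 changed sign, from -0.113 to 0.0522 without Rpl22+/+ replicate 2. All transcripts called by level numbered 3053, 747 without Rpl22+/+ replicate 3, 1332 without Rpl22+/+ replicate 1, 931, 979 and 934 without Rpl22-/- replicates 1, 2 and 3, 1555 with the replicate block and 6062 on the log2(TPM + 0.1) scale. By share they numbered 301, 515 without Rpl22+/+ replicate 2 and 454 without Rpl22-/- replicate 3.

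Libraries with the same number deviated together with correlations of 0.57, 0.715 and 0.129 over 13202 genes averaging 50 or more counts. Over all 16656 genes the correlations were 0.479, 0.634 and 0.0974. Each Rpl22-/- library correlated best with the Rpl22+/+ library of its own number. Rpl22+/+ replicate 3, however, correlated better with Rpl22-/- replicate 1 (0.43) than with its own number. Whether the numbers pair the libraries is thus not settled, and the reported fit did not use them. The replicate block moved Hoxa7 past the threshold (adjusted p = 0.0459) and changed no other member call. Under it, the called regulators of the cluster were 3 higher and 1 lower (4 and 3 with the GC offset, against 1 and 1), and the further Hox genes called lower were 2 (3 with the GC offset, against 4). Of 190 values for the counts of called genes over the lists, 142 stayed within 1.5 times. Hoxa11, with 4 reads over the Rpl22+/+ libraries and 32 over the Rpl22-/- libraries, was not tested.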
